A study of Mus musculus with 6 samples.

Results

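The 10 genes described here encode the mouse NF-κB subunits and a set of their inhibitors: Nfkb1, Nfkb2, Rel, Rela, Relb, Nfkbia, Nfkbiz, Nfkbie, Bcl3 and Tnfaip3. They were examined by ATAC-seq, which counts sequencing reads at DNA that the Tn5 transposase can reach and so measures how open chromatin is. A region of the deposited table of changed regions was assigned to a gene when it overlapped the gene body or the 50 kb to either side, with gene bodies taken from GENCODE M21 on mm10. By this rule 11 of the 10016 listed regions belonged to 8 of the 10 genes, and Rel and Rela had none. Of the 21755 protein-coding genes, 47.5% had a listed region in a window drawn the same way.

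The cells were mouse fetal liver hematopoietic progenitors transformed with the MLL-ENL fusion oncogene, a driver of infant acute leukemia, and all groups grew in medium with IL-3. WT cells were the parental line with Cebpa and Cebpb intact, both of which were flanked by loxP sites per the study's methods, and their labels name no vector. The dKO cells had lost both genes after treatment with the cell-permeable recombinase TAT-Cre and carried a GFP vector. They descend from rare surviving clones that, per the study, express the related gene Cebpe, so that clone, vector and genotype cannot be told apart in this comparison. The remaining group, dKO cells with the rat C/EBPβ isoform LAP*, was not analysed here. Each group had 2 libraries, and the table gives 1 log2 mean of normalised reads for WT and 1 for dKO, without a value per library. No SD or other spread between libraries can therefore be given for any value below, and depth per library was not given with it. Nothing in the labels says that the 2 libraries came from separate cultures. All changes are dKO minus WT on the log2 scale, and a fold is the ratio of the 2 group means.

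NF-κB is a family of dimeric transcription factors that carry signals from cytokine and microbial receptors to the nucleus. The subunits Rela, Rel and Relb hold activation domains, whereas Nfkb1 and Nfkb2 are made as precursors whose own ankyrin repeats act as inhibitors until they are processed. In a resting cell the dimers are held in the cytoplasm by IκB proteins such as the products of Nfkbia and Nfkbie, which are degraded after the IκB kinase complex (IKK) phosphorylates them. Bcl3 and Nfkbiz encode nuclear IκB proteins that modify target gene choice, and Tnfaip3 encodes A20, a ubiquitin-editing enzyme that shuts the pathway off. Several of these inhibitors are themselves switched on by NF-κB. In myeloid cells, NF-κB and C/EBP factors are known to act on many of the same inflammatory genes.

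The sequences below are those of the 3 regions about Nfkbia and of 1 region each near Nfkb1, Nfkbiz and Tnfaip3, read from the plus strand of GRCm38.p6, whose chromosomes are those of mm10. They were chosen to show rising and falling regions side by side. Only the Tnfaip3 region and the farther upstream Nfkbia region, the largest rise and the largest fall among the 11, were set by rule, and the others were picked after their values were seen. Each is the central 300 bases of the listed region, or the whole region where it is shorter. Capitals mark a match on either strand to the C/EBP consensus (TTACNNAA or TTGCNNAA), the AP-1 consensus (TGACTCA), the PU.1 consensus (GAGGAAGT) or the RUNX consensus (AACCACA). No marked match overlaps another.
Nfkbia, 42.7 kb upstream, lower in dKO, chr12:55535310-55535609: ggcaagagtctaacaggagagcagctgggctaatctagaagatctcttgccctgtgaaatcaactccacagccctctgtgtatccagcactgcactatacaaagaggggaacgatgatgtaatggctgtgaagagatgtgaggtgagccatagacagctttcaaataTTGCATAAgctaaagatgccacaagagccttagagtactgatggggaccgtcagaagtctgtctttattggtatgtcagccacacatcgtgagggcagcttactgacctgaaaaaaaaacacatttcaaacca
Nfkbia, 25.3 kb upstream, lower in dKO, chr12:55518011-55518310: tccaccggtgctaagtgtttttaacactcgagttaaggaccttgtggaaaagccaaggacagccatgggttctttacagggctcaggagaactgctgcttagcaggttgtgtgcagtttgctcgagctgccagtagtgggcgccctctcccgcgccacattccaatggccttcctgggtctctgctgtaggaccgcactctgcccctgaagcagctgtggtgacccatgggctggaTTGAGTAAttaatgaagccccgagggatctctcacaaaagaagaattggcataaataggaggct
Nfkbia, 22.2 kb downstream, higher in dKO, chr12:55466853-55467152: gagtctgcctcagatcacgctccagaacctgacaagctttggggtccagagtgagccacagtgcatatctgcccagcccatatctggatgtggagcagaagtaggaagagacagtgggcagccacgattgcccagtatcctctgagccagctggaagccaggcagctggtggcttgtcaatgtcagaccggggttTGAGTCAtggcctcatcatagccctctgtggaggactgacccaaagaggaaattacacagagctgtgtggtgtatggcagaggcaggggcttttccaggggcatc
Nfkbiz, 31.6 kb downstream, higher in dKO, chr16:55779436-55779731: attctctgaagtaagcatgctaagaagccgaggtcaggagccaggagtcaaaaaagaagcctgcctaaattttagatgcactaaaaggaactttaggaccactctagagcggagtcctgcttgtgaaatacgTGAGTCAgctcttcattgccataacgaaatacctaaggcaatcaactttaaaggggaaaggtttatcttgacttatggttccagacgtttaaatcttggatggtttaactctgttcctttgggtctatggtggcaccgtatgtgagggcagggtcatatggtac
Nfkb1, 30.4 kb downstream, higher in dKO, chr3:135553936-135554235: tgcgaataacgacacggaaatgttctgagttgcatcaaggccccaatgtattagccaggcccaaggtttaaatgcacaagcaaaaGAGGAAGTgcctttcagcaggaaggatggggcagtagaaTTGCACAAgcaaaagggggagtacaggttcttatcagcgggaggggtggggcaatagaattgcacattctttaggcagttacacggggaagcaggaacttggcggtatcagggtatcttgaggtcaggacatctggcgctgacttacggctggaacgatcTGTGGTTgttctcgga
Tnfaip3, 28.2 kb upstream, higher in dKO, chr10:19043923-19044222: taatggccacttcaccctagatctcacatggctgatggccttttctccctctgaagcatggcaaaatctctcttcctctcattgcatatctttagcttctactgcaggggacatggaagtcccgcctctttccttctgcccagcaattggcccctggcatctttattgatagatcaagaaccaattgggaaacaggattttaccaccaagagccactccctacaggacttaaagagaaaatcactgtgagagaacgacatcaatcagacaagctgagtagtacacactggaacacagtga
Both falling regions upstream of Nfkbia hold a C/EBP match, TTACTCAA on the minus strand in the nearer one and TTGCATAA in the farther one. The rising regions near Nfkbia and Nfkbiz each hold an AP-1 match instead. The rising region near Nfkb1 holds a C/EBP match, TTGCACAA, together with a PU.1 match and, nearer its edge, a RUNX match. The region near Tnfaip3 holds none of the motifs searched.

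Of the 11 regions, 8 (72.7%) were more accessible in dKO and 3 (27.3%) were less accessible. Among all listed regions 60.3% were higher in dKO. Every listed region had passed the authors' corrected P-value of 0.05, so that passing it is no finding about these genes. At least 2-fold change was seen in 10 of the 11, against 85.5% of all listed regions. The median change was 1.27 for the 11 regions and 0.98 for the table. The median was 1.64 for the 8 higher regions against 1.58 for all higher regions, and -1.32 for the 3 lower regions against -1.85 for all lower ones.

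The regions lay away from the genes they were assigned to. None of the 10 genes had a listed region in its body, where 17.0% of protein-coding genes had one, and none had one within 1 kb of a transcription start site (TSS), where 6.47% did. The distance from region to gene body ran from 5.6 kb at Relb to 49.9 kb at Nfkbie, with a median of 30.4 kb. The nearest TSS of the assigned gene was 20.9 kb to 57.3 kb away. The region just inside the 50 kb limit was the downstream one of Nfkbie, at 49.9 kb (1.79), and the one just outside it lay 54.0 kb upstream of Bcl3, with 8.24 in WT and 8.89 in dKO (0.65). Downstream of their genes lay 6 regions, all higher in dKO, and upstream lay 5, of which 2 were higher. This split was seen after the fact and has no share by side over all genes beside it. It did not hold between 50 kb and 100 kb: downstream regions there went both ways (from -4.68 at Nfkb1 to 2.31 at Nfkbiz). The upstream ones there, at Nfkbiz (1.33) and Bcl3 (0.65), were higher. Only 4 of the 11 were closer to the coding TSS of the assigned gene than to that of any other gene, 2 of them at Nfkbia and 1 each at Nfkbiz and Tnfaip3. The other 7 had another gene's TSS nearer, and 5 of those lay inside such a gene, so that which gene a region acts on cannot be read from its position.

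**Figure D1:**
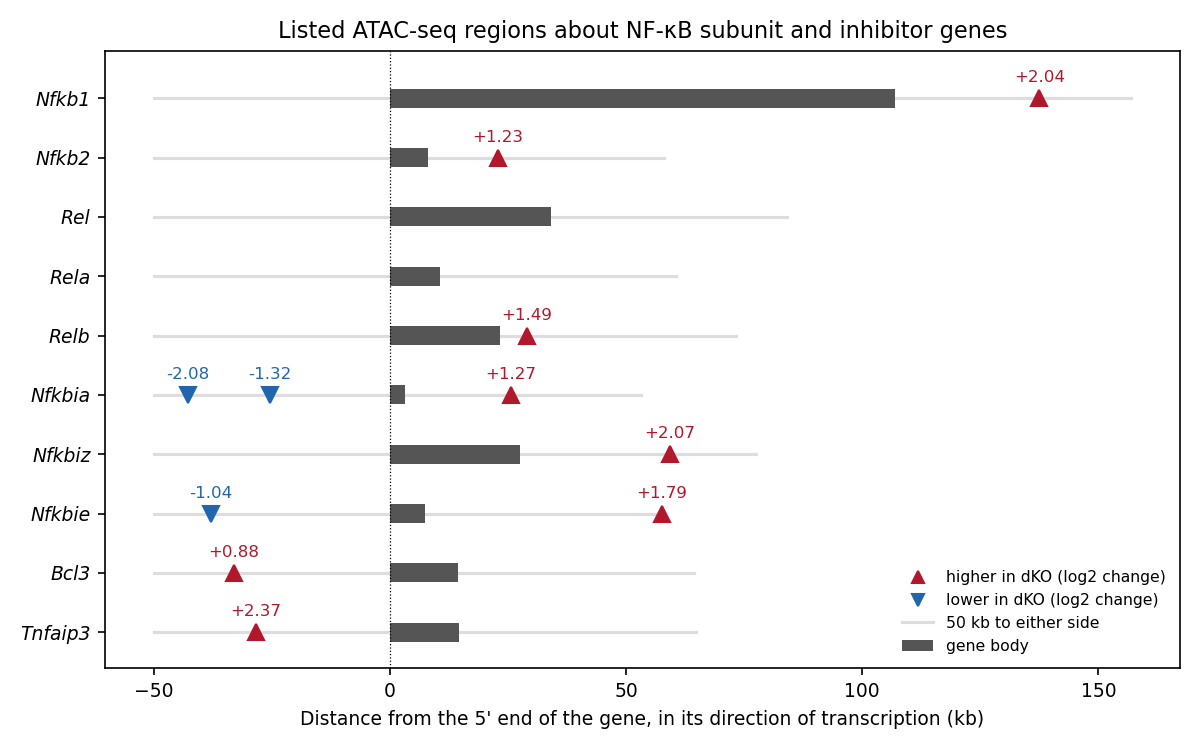
Listed ATAC-seq regions about each of the 10 genes, with distance from the gene's 5′ end in kb along the x axis and 1 gene per row. Dark bars are gene bodies, pale lines the 50 kb to either side, and triangles the regions, pointing up (red) where dKO was higher and down (blue) where it was lower, with the log2 change above. No triangle sits on a gene body, and all 3 lower regions lie upstream, 2 at Nfkbia and 1 at Nfkbie. Between 50 kb and 100 kb, not drawn, the lower regions lay downstream.

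Among the subunits, Nfkb1, which encodes the precursor of the most widely used DNA-binding partner, occupies chr3:135584655-135691547 on the minus strand. Its single region, chr3:135553887-135554284, lay 30.4 kb past the end of the gene, in an intron of Manba, the gene of the lysosomal enzyme beta-mannosidase. The group mean was 3.96 in WT and 6.00 in dKO on the log2 scale (15.6 and 64.0 normalised reads), a rise of 2.04 (4.11-fold). The Manba TSS was 3257 bp away and that of Nfkb1 40157 bp away.

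Nfkb2 encodes the precursor that the non-canonical arm of the pathway processes, and lies at chr19:46304320-46312385 on the plus strand. Its region, chr19:46327022-46327274, was 14.6 kb downstream and lay over the TSS of Psd, a guanine nucleotide exchange factor gene, in exon and UTR sequence. The group mean was 4.90 in WT and 6.13 in dKO, a rise of 1.23 (2.35-fold, from 29.9 to 70.0 normalised reads). At 68.5% GC it was the most GC-rich of the 11, whose median GC content equalled that of all listed regions. None of the 5 motifs was found in it, and 4 other coding genes had a TSS closer to it than that of Nfkb2.

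Relb, the partner of processed Nfkb2, lies at chr7:19606217-19629438 on the minus strand. Its region, chr7:19600313-19600635, was the closest of the 11 to its gene, 5.6 kb past its end, in an intron of the splicing gene Clasrp and of the lincRNA Gm26890. The mean was 4.92 in WT and 6.41 in dKO, a rise of 1.49 (2.81-fold, from 30.3 to 85.0 normalised reads). A PU.1 match lay 5 bases from its centre.

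Rel and Rela, which encode the subunits with the strongest activation domains, had no listed region within 50 kb. For Rela, at chr19:5637483-5648130, the closest listed region was 76.4 kb away at chr19:5724487-5725318, 1.0 kb from a TSS of Ehbp1l1, with 8.02 in WT and 9.12 in dKO. For Rel, at chr11:23736847-23770970, it was 166.3 kb away at chr11:23570148-23570498, with 5.23 in WT and 6.47 in dKO. The table lists only regions that passed the authors' threshold. A gene without a listed region therefore has no measured value here, which is different from a measured lack of change.

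Nfkbia, the gene of the main cytoplasmic inhibitor IκBα, had the most regions of the 10 genes, with 3, and they went both ways. It is a short gene of 3.2 kb at chr12:55489410-55492647 on the minus strand, with no other coding gene in its window, and all 3 regions were intergenic. Of all protein-coding genes, 9.78% had 3 or more listed regions in the window.

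The farther upstream region, chr12:55535300-55535619, lay 42.7 kb before the gene. It had a mean of 5.26 in WT and 3.18 in dKO, a fall from 38.3 to 9.06 normalised reads (-2.08, 4.23-fold lower). This was the largest fall of the 11, and its absolute change stood at percentile 66.3 of all listed regions. The TSS of Aldoart2, 29620 bp away, was closer to it than that of Nfkbia. The nearer upstream region, chr12:55517973-55518347, was 25.3 kb before the gene and went from 6.08 in WT to 4.76 in dKO (-1.32, 2.50-fold lower, from 67.6 to 27.1 normalised reads). On the other side, 22.2 kb past the gene, chr12:55466812-55467193 went from 5.26 to 6.53 (1.27, 2.41-fold higher, from 38.3 to 92.4 normalised reads). In WT the farther upstream and the downstream region thus had the same mean, and in dKO they stood over 3 log2 units apart, at 3.18 and 6.53. The C/EBP match lay 21 bases from the centre of the farther upstream region and 90 bases from the centre of the nearer one. The AP-1 match of the rising region lay 49 bases from its centre.

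Nfkbie, which encodes IκBε and lies at chr17:45555703-45563169 on the plus strand, was the other gene with regions of both directions. Upstream by 37.7 kb, chr17:45517549-45518036 covered coding exon sequence of Aars2, a mitochondrial alanyl-tRNA synthetase gene, and went from 6.35 in WT to 5.31 in dKO (-1.04, 2.06-fold lower, from 81.6 to 39.7 normalised reads). Downstream by 49.9 kb, chr17:45613041-45613322 was intergenic and went from 3.06 to 4.85 (1.79, 3.46-fold higher, from 8.34 to 28.8 normalised reads). This second region was the weakest of the 11 in WT, with the closest coding TSS, that of Mymx, at 10939 bp. Each of the pair held a PU.1 match, and the falling one held a RUNX match as well.

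The nuclear IκB genes each had 1 region, higher in dKO. Nfkbiz, which encodes IκBζ, a coactivator of secondary inflammatory genes, lies at chr16:55811375-55838899 on the minus strand. Its intergenic region, chr16:55779436-55779731, was 31.6 kb past the gene and went from 3.27 in WT to 5.34 in dKO (2.07, 4.20-fold higher, from 9.65 to 40.5 normalised reads). The AP-1 match lay 12 bases from its centre. A small non-coding gene, Gm26369, had its TSS 292 bp away.

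Bcl3, a proto-oncogene whose product binds dimers of the processed Nfkb1 and Nfkb2 proteins, lies at chr7:19808462-19822770 on the minus strand, 179 kb from Relb. Its region, chr7:19855466-19856197, was 32.7 kb upstream and 39 bp from the TSS of Ceacam16, a cell adhesion family gene. It was the widest and most open of the 11, with 7.11 in WT and 7.99 in dKO (138 and 254 normalised reads). Its rise of 0.88 (1.84-fold) was the smallest of the 11, at percentile 9.28 of absolute change but percentile 93.5 of the mean level over both groups.

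Tnfaip3, at chr10:19000910-19015657 on the minus strand, had the largest rise. Its region, chr10:19043836-19044308, was intergenic, 28.2 kb upstream of the gene, with no other coding gene in the window. The group mean was 4.20 in WT and 6.57 in dKO, a rise from 18.4 to 95.0 normalised reads (2.37, 5.17-fold), at percentile 75.4 of absolute change. On chromosome 10 as a whole 629 of 767 listed regions (82.0%) were higher in dKO. The part of this shift in the Tnfaip3 value was not tested. By the same measure the chromosomes of the other members ranged from 45.9% higher (Relb and Bcl3) to 73.0% (Nfkbiz).

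**Figure D2:**
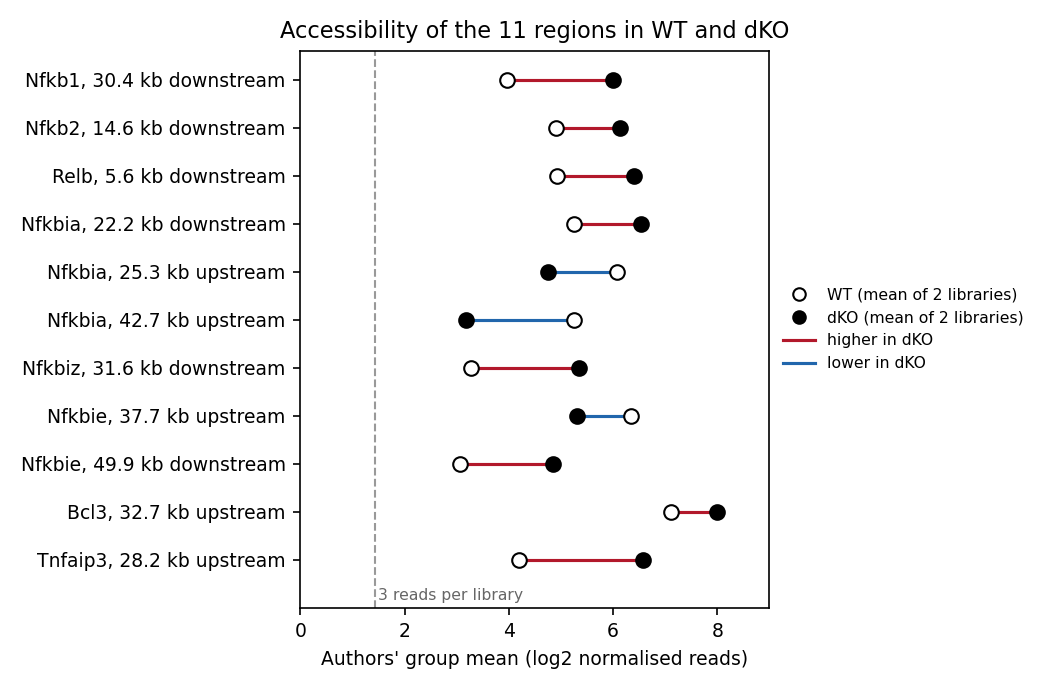
Accessibility of the 11 regions as the authors' group means in log2 normalised reads, with open circles for WT and filled circles for dKO, each the mean of 2 libraries with no error available. Red lines join pairs that were higher in dKO and blue lines pairs that were lower. All 22 group means lie between 3.06 and 7.99, to the right of the dashed line at 1.44, which marks 3 reads per library.

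The order of the 8 rises was Tnfaip3, Nfkbiz, Nfkb1, the downstream region of Nfkbie, Relb, the downstream region of Nfkbia, Nfkb2 and Bcl3. Without values per library it cannot be said which neighbours in that order differ beyond their spread. In WT the 11 regions had a median of 4.92 against 5.31 for all listed regions, and in dKO 6.00 against 5.59. None of the 22 group means was near the value taken as 3 reads per library, so that no fold here rests on an empty group.

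**Figure D3:**
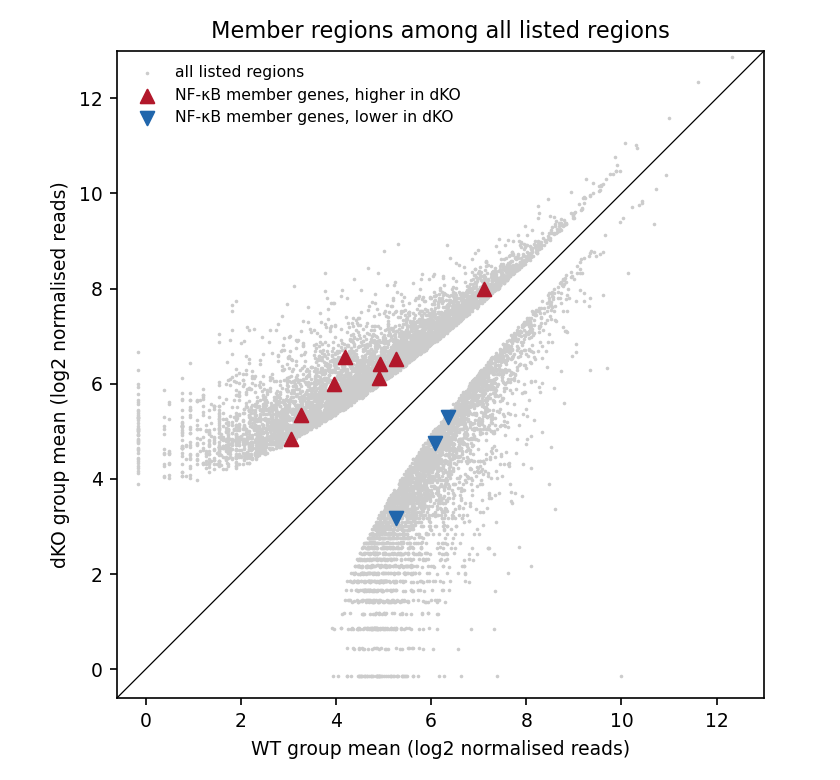
WT group mean (x axis) against dKO group mean (y axis), both in log2 normalised reads, for all 10016 listed regions (grey) and the 11 regions of the NF-κB genes (red triangles higher in dKO, blue triangles lower). The empty band along the diagonal is where the authors' threshold left no region, the smallest absolute change listed being 0.49. The 11 regions sit within the grey clouds and away from the axes, where a group was at or near 0 reads.

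The motifs of the 11 regions were counted in the central 200 bp and set beside all listed regions. The C/EBP consensus was found in 3 of the 11 (27.3%) and in 28.4% of the table. By direction it was in 2 of the 3 lower regions and 1 of the 8 higher ones, against 40.8% and 20.1% in the table. Over whole regions it was in all 3 lower ones, with the upstream Nfkbie region added (TTACAAAA), against 54.3% of the lower regions of the table. The AP-1 consensus was in 3 of the 8 higher regions and none of the 3 lower ones, against 26.7% and 4.67%. Over whole regions it was also in 1 of the 3 lower ones, the upstream Nfkbie region, against 8.89% of the lower regions of the table. The 3 with a central match were those of Nfkbiz and Bcl3 and the downstream region of Nfkbia. PU.1 matches were in 4 of the 11 (36.4%), at Nfkb1, Relb and both Nfkbie regions, against 9.22% of the table. The RUNX consensus was in 1 (9.09%) against 11.9%, and over whole regions in 3 (27.3%) against 19.3%. With so few regions these counts are descriptions, and a match does not show that a factor binds.

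The κB consensus, the DNA element to which NF-κB dimers bind, was in none of the 11 regions, in their central part or in full. It was in 2.15% of all listed regions in the central 200 bp and in 5.10% over the whole region. It was also searched for in the genes' promoters, in the RefSeq sequences of GRCm38.p6 from 250 bases before to 50 bases after each start. The table held promoters of 7 of the 10 genes; Nfkb1, Relb and Nfkbiz were not matched. A κB match was in the promoters of 6 of the 7, Rela being the exception, against 5.14% of the 27025 genes in the table. Nfkbia carried GGGAATTTCC beginning 29 bases before its start. Tnfaip3 had GGGGATTTCC 12 bases before 1 of its starts. Rel had GGGAAATCCC 92 bases before its start, and GGGGATTTCC on the other strand over almost the same bases. Nfkbie had GGGGGATTCC 106 bases before, and Bcl3 had GGGACTTCCC just past its start. Nfkb2, with 3 promoters in the table of which the later 2 overlap, had matches in each, among them GGGGCTTTCC 11 bases before the first start. The C/EBP consensus was in a promoter of 1 of the 7, Tnfaip3 (TTACTGAA), against 20.8% of genes. AP-1 was in promoters of 2 (Nfkbie and Tnfaip3) against 5.95%, PU.1 in 1 (Rel) against 3.69%, and RUNX in none against 6.09%. None of these promoters was among the listed regions, so that no accessibility value is at hand for the elements named here.

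The rest of the pathway was followed through 66 other genes in 6 lists. Of these, 43 (65.2%) had a listed region in the window, 22 (33.3%) in the body and 5 (7.58%) within 1 kb of a TSS, against the 47.5%, 17.0% and 6.47% of all coding genes. Neighbouring genes share regions, and the 88 distinct regions comprised 66 that were higher in dKO (75.0%) and 22 that were lower, with a median change of 1.20. For all listed regions the share higher was 60.3% and the median 0.98, beside which the counts per list below are to be read.

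Of the 10 genes of IKK and its upstream kinases, 8 had regions, 14 of which were higher and 4 lower. In a region 561 bp from the TSS of Ikbkb, the gene of the catalytic IKKβ, the mean went from 2.93 in WT to 5.31 in dKO (2.38), and the other region of its window was lower (-1.09). Map3k14, the kinase that starts the non-canonical arm, had 7 regions, all higher. Of these, 3 lay in its body, and some of the others were nearest to the TSS of Fmnl1 or Arhgap27. Tbk1, an IKK-related kinase, had 4 higher regions. In its body 1 went from 1.77 in WT to 5.98 in dKO (18.5-fold higher), and at another, near the gene, WT was under the value taken as 3 reads per library and dKO was at 4.63, at least 9.16-fold higher. Tbk1 lies on chromosome 10, as Tnfaip3 does, where 82.0% of listed regions were higher. On the same chromosome lie Irak3 and some of the targets and myeloid markers counted below.

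Of the other 3 IκB genes, 2 had regions and all 9 were higher. Nfkbid, which encodes the nuclear protein IκBNS, had 7, with 6.54 in WT and 7.30 in dKO at its own TSS (0.76). The largest of its window, 1.92, lay over the TSS of Tyrobp, the gene of a myeloid signalling adaptor. All regions of Nfkbid but the one at its own TSS were nearest to the TSS of Tyrobp or Hcst. Both regions of Nfkbil1 were nearest to that of Aif1 or Gm16181, and both are counted again for Tnf among the targets below.

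Of the 18 adaptors and ligases, 7 had regions, 11 higher and 6 lower. Traf1, an adaptor of TNF receptors, had 2 regions at its TSS, which rose by 1.95 and 1.29. Irak3, an inhibitory member of the interleukin-1 receptor kinase family, had 4 higher regions, the largest at 4.36 in WT and 6.87 in dKO (2.51).

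Of the 11 receptors, 8 had regions, 6 higher and 6 lower. At the TSS of Il1r1, the interleukin-1 receptor gene, the mean went from 6.03 to 4.32 (-1.71). The other 2 regions of Il1r1, both in its body, were higher (1.47 and 1.66). Both regions near Cd40, a co-stimulatory receptor, were lower. The largest change was near Tnfrsf13c, the gene of the BAFF receptor, where dKO was under the value taken as 3 reads per library and WT was at 4.85, at least 10.7-fold lower in dKO.

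Of the 8 other negative regulators, 7 had regions, 9 higher and 5 lower. In N4bp1, which encodes an RNA-cleaving inhibitor of the pathway, a region was at least 8.54-fold higher in dKO, with WT under the value taken as 3 reads per library. In Otud7b, a deubiquitinase gene, another was at least 10.8-fold higher by the same bound, and near Tnip1, the gene of a partner of A20, a region with both means above it was 9.25-fold higher (2.51 in WT and 5.72 in dKO). The other 2 regions of Tnip1 were lower (-1.87 in its body and -1.01 outside it). The window of N4bp1 held another higher region and 2 lower ones.

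Of 16 well-known targets of NF-κB, 11 had regions, and 19 of the 20 distinct regions (95.0%) were higher in dKO, against 60.3% of the table. The lower one was near Cd83, a gene of activated antigen-presenting cells. Only 2 of the 16 genes had a region in the body. For many of the 20 regions the nearest coding TSS was that of a gene outside the list, such as Ccl9, S1pr2 or Aif1. Several lay in a cluster of chemokine genes on chromosome 11. The 20 are thus neither all separate loci nor known to act on the targets. The chemokine gene Ccl4 had a region 975 bp from its TSS, with 4.41 in WT and 5.73 in dKO (1.32). A region in Ccl5, another chemokine gene of the same cluster, had no more than the lowest value in WT and 4.61 in dKO, at least 9.03-fold higher. Markers of myeloid progenitors moved with this group: 5 of 6 had regions, 11 higher and 1 lower, with Fcgr3 at none. The study reported lower RNA of Csf1r, Rel, Rela and Relb, and reduced CD11b (the product of Itgam), in dKO cells. A higher region near Csf1r, Itgam or Relb here therefore does not stand for higher expression. Of 7 markers of other blood lineages, 2 had regions, with all 3 higher. Their part in the result was not tested, and a table of changed regions cannot show which cell types the cultures held.

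**Figure D4:**
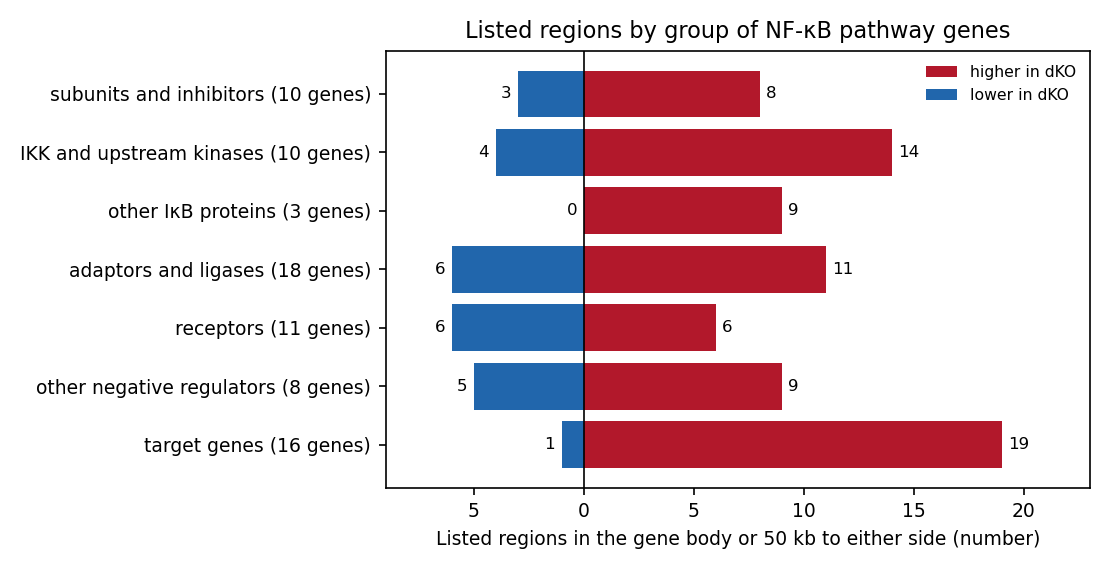
Number of distinct listed regions in the gene body or 50 kb to either side (x axis) for the 10 subunit and inhibitor genes and for 6 lists of other NF-κB pathway genes (y axis, with the number of genes). Red bars to the right count regions higher in dKO and blue bars to the left those lower. A region near genes of different lists is counted in each. The target genes have 19 higher and 1 lower, the receptors 6 and 6, and the subunits and inhibitors 8 and 3.

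The deleted genes checked the labels. The Cebpa region over its TSS went from 9.99 in WT to the lowest value of the table in dKO, at least 376-fold lower. Over Cebpb, a region at the TSS went from 8.60 to 3.37, and the one beside it from 7.38 to the lowest value, at least 61.6-fold lower. The first Cebpb region thus kept reads in dKO, above the value taken as 3 reads per library. Outside the gene bodies, 1 region in the window of Cebpa (3.19) and 2 in that of Cebpb (1.99 and 1.97) were higher in dKO.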

How the data were processed

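ATAC-seq libraries of 3 groups (WT, dKO and dKO-LAP*; 2 libraries each, 6 in all) were prepared and sequenced by the authors, who ran the PiGx pipeline (alignment to mm10 by Bowtie 2, peaks by MACS) and then DiffBind 2.14.0 to find differential regions (per the paper's methods and the submitters' processing notes). Handling of duplicates and of the Tn5 offset was not given in the sources used here. The authors deposited, for each region under a corrected P-value of 0.05, the log2 mean of normalised reads over the WT and over the dKO libraries, which were used here. They also deposited log2 fold changes, p-values and FDR, which were not used except to check that threshold. The 2 deposited files were identical, so that dKO-LAP* was not analysed here and no value per library was at hand.

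Each change was computed as dKO minus WT. The lowest log2 value, -0.15, was taken as 1 read in each library, and 3 reads per library (1.44) as the floor for folds, which covers counting error only. Regions were assigned to GENCODE M21 gene bodies extended by 50 kb. Motif strings were searched on both strands of GRCm38.p6 with pysam 0.24.0, and scripts (Python 3.11.15, pandas 2.3.3) were tested on simulated data. No test between groups was made. All 10 genes were described, with each region. Of other pathway genes, those with a region within 1 kb of a TSS were named. So was the largest difference of deposited log2 means per list, whatever the floor. Others named (the second Tbk1 region, Otud7b, Tnip1, Map3k14, Cd40, Cd83, Fcgr3, Nfkbil1, Tnf, Csf1r, Itgam) were chosen after their values were seen. Members and lists were chosen with earlier results of these data known.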

Additional observations from a re-analysis of the deposited data

How the results depend on the processing

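The number of regions depended on the window. With the gene body alone there was no region (0 regions, 0 higher in dKO, 0 genes), so no median could be given. With 10 kb added there was 1 region, at 1 gene and higher (a change of 1.49), and with 100 kb added there were 21 regions, 14 of them higher. Keeping only regions whose nearest coding TSS was that of one of the 10 genes left 4 regions at 3 genes, 3 of them higher. Over these alternatives the median change ran from 0.88 to 1.67. A minimum change of 2-fold left 10 regions, 7 of them higher, and a floor of 3 reads per library left 11. Subtracting the median of all listed regions, 0.98, gave 7 higher regions with a median of 0.29, and turned Bcl3 from 1 higher to 1 lower region (-1). A search of whole regions found RUNX in 3 in place of 1, and changed the other motifs by at most 1. Among the 18 combinations of gene with the 10 kb window, the 100 kb window or centring that left the gene a region, 11 gave the same balance of higher and lower regions. Genes that lost every region, as all did with the body alone and all but Relb with 10 kb, are not among the 18. No paired analysis was possible because each group is represented by its mean alone, and for the same reason no library could be left out.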

Other observations

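Between 50 kb and 100 kb from the genes lay 10 further regions, which were read after the values of the 11 were known. Nfkbiz gained 3, all higher in dKO, which made 4 of 4 higher within 100 kb and 6 of 6 within 500 kb, on a chromosome where 73.0% of listed regions were higher. The strongest of the 3 was chr16:55733793-55734159, 77.2 kb past the gene, which went from 3.50 in WT to 5.81 in dKO (2.31) and held an AP-1 match, as did the one within 50 kb. Nfkb1 gained a region that fell by more than any of the 11: chr3:135516807-135517223, over a TSS of Manba 67.4 kb past Nfkb1, went from 6.13 to 1.45 (-4.68, 25.6-fold lower, with dKO barely above the 1.44 taken as 3 reads per library). Manba thus had a falling region at one TSS and a rising one in an intron. Bcl3 had 11 of 11 regions higher within 500 kb and Relb 12 of 14, on a chromosome where 45.9% were higher, and since these genes lie 179 kb apart their wide windows share regions. Around Rel, 7 of 10 regions within 500 kb were lower, on a chromosome where 62.6% were higher. No test was made of any of these counts.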
